A study of Homo sapiens with 6 samples.

Results

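The genes described here encode enzymes and remodelling subunits that write, erase or move marks on chromatin: the histone demethylases named KDM, the KMT2 histone methyltransferases, the histone deacetylases HDAC and SIRT, the DNA methyltransferases DNMT and the TET enzymes, the Polycomb methyltransferases EZH, and the SMARC genes. By rule they were taken by name, as protein-coding genes of the count table whose symbols carry one of these family names, and the naming rule uses no expression value, though the families themselves were picked with earlier results of these data known. The rule found 65 genes of 58870 in the table, of which 19986 were protein-coding. The study asked what a forced dimer of the small MAF protein MAFG and the melanocyte transcription factor MITF does in melanoma cells. The cells were WM164, a line established from a human melanoma, grown in RPMI medium with 5% serum, and total RNA gave 6 sequencing libraries. In 3 libraries the cells overexpressed green fluorescent protein (GFP), the control. In the other 3 they overexpressed T-MGM, a single protein in which MITF and MAFG are held together by a flexible linker, delivered by lentivirus with a blasticidin resistance gene. Both groups are 1 cell line, and nothing in the labels says whether the 3 libraries of a group came from separate cultures, so p-values measure the spread between these libraries, which may be technical.

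Chromatin in every cell carries methyl and acetyl groups on histone tails and methyl groups on cytosines of DNA. Most KMT2 enzymes methylate lysine 4 of histone H3 at promoters and enhancers and EZH enzymes methylate lysine 27 as the catalytic part of Polycomb repressive complex 2, while KDM enzymes remove such groups. HDAC and SIRT proteins remove acetyl groups, DNMT proteins methylate DNA and TET proteins oxidise that mark. SWI/SNF complexes use ATP to slide or evict nucleosomes, and each complex takes 1 protein from each of several sets of interchangeable paralogues. In the melanocyte lineage SMARCA4, a SWI/SNF ATPase, is known as a partner of MITF at pigment genes.

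Sequencing gave 35057239 to 38738065 counts per GFP library and 44577774 to 59250663 per T-MGM library. The cells had the melanocyte transcripts expected of their label except TYRP1, with a summed level of 7 melanocyte markers of 963.87 to 976.92 TPM (a transcript level corrected for length and depth, with the same sum in every library) in GFP and 831.21 to 864.94 in T-MGM, where 6 of 7 were above 1 TPM. Keratinocyte and endothelial markers, 3 of 3 in each list, stayed under 1 TPM in mean. Among 6 fibroblast markers 5 stayed under it and LUM did not, the list summing to 4.11 to 4.64 TPM in GFP and 4.54 to 6.72 in T-MGM, and of 3 leukocyte markers CD68 exceeded it while PTPRC and CD3E were near 0, the list summing to 10.03 to 11.5 TPM in GFP and 11.21 to 15.25 in T-MGM. The part of these markers in the results below was not tested. Neither partner of the construct clearly marked its libraries: MAFG stood at 9.55 to 10.2 TPM in GFP and 8.25 to 8.69 in T-MGM, and MITF at 137 to 139 and 130 to 135. In counts the log2 fold change was -0.060 for MAFG (adjusted p 0.236, DESeq2) and 0.081 for MITF (adjusted p 4.80e-07, DESeq2). The direction for MITF thus depended on the scale, and neither transcript checks the labels. Other transcripts set the groups apart without overlap. AXL, the receptor kinase the study used as a marker of dedifferentiated melanoma cells, had a mean of 1.06 TPM in GFP against 4.48 in T-MGM, and the pigment enzyme gene DCT lay at 54.4, 57.2 and 57.6 TPM against 8.06, 8.84 and 8.91. MLANA and TYR, also genes of pigment cells, fell by 0.68 and 0.35 on the log2 scale. Not all markers of the list fell: like MITF, SOX10 and PMEL were slightly higher in counts. Their log2 fold changes were 0.11 and 0.051 (adjusted p 4.24e-10 and 0.00559, DESeq2).

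Over all chromatin genes the shift was small in size and split in direction. SMARCD3 was the only one of the 61 tested genes called, meaning an adjusted p at or under 0.05 with more than a 2-fold change, against 4.63% of the 19135 genes tested across the table. It was higher in T-MGM, where 3.26% of all tested genes were called, and 0 chromatin genes were called lower, where 1.36% were. The count of lower calls was also 0 in DESeq2 at an unadjusted p under 0.05 and 0 in edgeR. At the adjusted p alone 17 of the 61 were higher and 21 lower in T-MGM, together 62.3%, beside 38.4% of all tested genes and 19.2% in each direction. The share that passed was larger among abundant genes: among the 6577 tested genes with a mean normalized count (a count divided by the library's DESeq2 size factor) of at least 1000, 68.0% passed, and among the 39 chromatin genes at that level 30 did, or 76.9%. At a mean of 50 or more 54.0% passed, 26.4% higher and 27.6% lower, a background for the family counts below. Calls of more than 2-fold were rarer among abundant genes. Of 12652 genes at a mean of 50 or more, 313 were called higher and 93 lower. Of the 6577 at 1000 or more, 31 were called higher and 14 lower, and of the 39 chromatin genes there 0 were called. The median log2 fold change of the 61 was -0.014, beside -0.0027 over all tested genes, and the median absolute value was 0.18 beside 0.25 over all tested genes and 0.18 where the mean normalized count was 50 or more. In 37 of the 61, or 60.7%, the normalized counts of both groups did not overlap, beside 46.8% of all tested genes and 60.7% at a mean of 50 or more. At a mean of 1000 or more the share was 71.8% of chromatin genes and 72.1% of all. Among the 4 members without an adjusted p, DNMT3L, KDM4E and KDM4F had at most 3 counts in every library, and no fold is given for any of the 4.

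**Figure D1:**
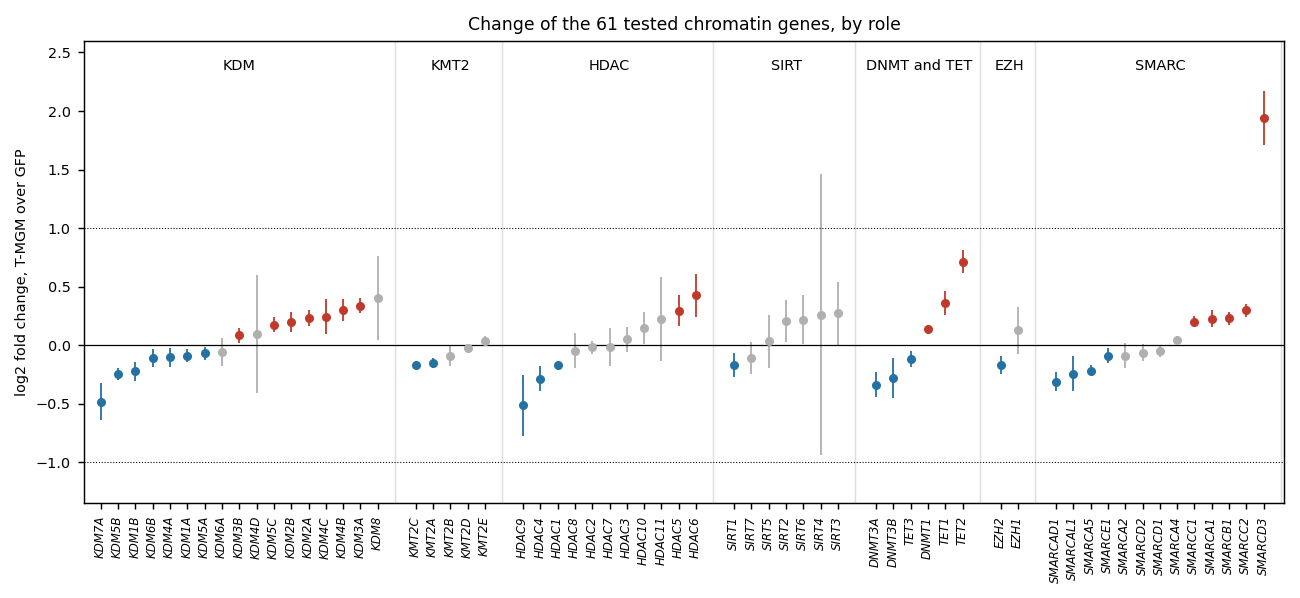
Log2 fold change of each of the 61 tested genes, T-MGM over GFP, by family (points, with 95% limits from the DESeq2 standard error as bars). Red points were higher and blue points lower at an adjusted p at or under 0.05, grey points did not pass, and dotted lines mark a 2-fold change, which SMARCD3 exceeded at 1.94.

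The stretches of DNA just before the start sites of the 4 chromatin genes with the largest changes that had a RefSeq promoter entry are shown because both proteins of the construct bind DNA directly, MITF at E-boxes and small MAF proteins at MAF recognition elements. Each is 250 bases on the gene's own strand, 5′ to 3′, from RefSeq on GRCh38.p14, and ends at the base before the start that RefSeq annotates. Capitals mark matches, on either strand, to CACGTG or CATGTG (E-boxes), TGANTCA (AP-1 sites and the core of the MAF element), TGCTGA (an arm of the MAF element) or ACGTG (core of the hypoxia response element, which every CACGTG also holds). The SMARCD3 stretch lies at chr7:151277150-151277399 on the minus strand, inside the gene as GENCODE draws it, and holds 1 match, TGCTGA at positions -239 to -234 counted from the start. The TET2 stretch lies at chr4:105145625-105145874 on the plus strand, with CACGTG at positions -14 to -9. The HDAC9 stretch is at chr7:18495499-18495748 on the plus strand, also inside the GENCODE gene, and holds 1 AP-1 match, TGATTCA. The KDM7A stretch, chr7:140176984-140177233 on the minus strand, holds 1 ACGTG, and 81.6% of its bases are G or C, against 45.6% for TET2.
SMARCD3: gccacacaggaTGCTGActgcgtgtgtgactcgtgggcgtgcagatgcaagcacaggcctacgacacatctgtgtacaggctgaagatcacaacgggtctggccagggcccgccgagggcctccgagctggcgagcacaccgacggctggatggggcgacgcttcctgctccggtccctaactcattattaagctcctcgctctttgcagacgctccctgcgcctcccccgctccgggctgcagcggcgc
TET2: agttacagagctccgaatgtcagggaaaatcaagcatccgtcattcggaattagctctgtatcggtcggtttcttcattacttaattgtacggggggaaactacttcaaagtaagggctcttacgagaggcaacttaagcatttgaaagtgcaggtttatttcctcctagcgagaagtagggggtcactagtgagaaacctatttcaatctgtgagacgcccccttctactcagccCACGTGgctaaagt
HDAC9: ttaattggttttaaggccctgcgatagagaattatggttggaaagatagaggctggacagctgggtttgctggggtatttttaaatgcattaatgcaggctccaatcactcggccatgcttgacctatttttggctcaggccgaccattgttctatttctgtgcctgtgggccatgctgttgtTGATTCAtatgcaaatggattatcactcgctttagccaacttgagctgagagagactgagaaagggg
KDM7A: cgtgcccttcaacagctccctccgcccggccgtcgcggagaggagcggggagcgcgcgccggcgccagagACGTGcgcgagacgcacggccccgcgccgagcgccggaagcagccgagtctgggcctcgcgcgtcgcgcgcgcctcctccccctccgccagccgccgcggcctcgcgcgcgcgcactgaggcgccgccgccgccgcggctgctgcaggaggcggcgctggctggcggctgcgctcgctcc

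Of the 64 members other than the Y-linked KDM5D, 58 had a RefSeq promoter entry and 6 did not. CACGTG was in the 250 bases of 7 of the 58, or 12.1%, beside 6.49% of 27305 promoters of all genes, and CATGTG was in 0 of the 58, beside 9.54%. TGANTCA was found in 4 of them, or 6.90%, and in 6.60% of all promoters. The arm TGCTGA was in 6, or 10.3%, beside 14.1%, and ACGTG in 13, or 22.4%, beside 18.7%. Of the 7 genes with CACGTG, 3 were higher in T-MGM (TET2, KDM4B and KDM4C), 2 were lower (SIRT1 and TET3) and 2 did not pass (KDM6A and KMT2D). The promoters of chromatin genes held more CG (a C followed by a G), with a median of 22 in the 250 bases beside 11 in all promoters. Their median GC content was 65.6% beside 58%. CACGTG and ACGTG contain CG, while CATGTG and TGCTGA do not. The part of base composition in these shares was not tested. A match of letters is a description and not a binding site.

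SMARCD3 (ENSG00000082014.16, chromosome 7, 151238764 to 151277896, minus strand of GRCh38), which encodes the BAF60C subunit of SWI/SNF, known for its part in muscle and neural programmes, rose most. The GFP libraries held 134, 136 and 134 normalized counts of it and the T-MGM libraries 504, 528 and 521. All 3 T-MGM libraries lay far above all 3 GFP libraries, and libraries within a group lay close together. The fold change was 3.84 (95% limits 3.27 to 4.51), a log2 fold change of 1.94 with an SE of 0.12 and an adjusted p of 2.01e-58 in DESeq2. That size ranked 711 of 19135 tested genes by absolute log2 fold change. SMARCD3 remained a low transcript, at 1.96 ± 0.142 TPM (SD, n = 3) in GFP and 7.39 ± 0.662 in T-MGM. The 46 measured neighbours within 5 Mb had a median log2 fold change of -0.05. SMARCD3 overlaps CHPF2 on the opposite strand over 2216 bases, and the labels and the study's methods differ on whether the libraries kept strand. CHPF2 had mean normalized counts of 1238 and 1271. RNA was taken from whole cultures, where a higher level in each cell and a larger share of cells with the transcript cannot be told apart.

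The remaining SMARC genes of SWI/SNF moved by much less. Of the 9 that encode SWI/SNF subunits, 4 were higher, 1 was lower and 4 did not pass. The share that passed, SMARCD3 included, was 55.6%, beside 54.0% of tested genes at a mean normalized count of 50 or more. The core scaffold gene SMARCC2 had 4357, 4296 and 4288 normalized counts in GFP against 5288, 5509 and 5126 in T-MGM, without overlap, a rise of 22.9% (log2 fold change 0.30, SE 0.030, adjusted p 4.88e-22, DESeq2). It overlaps the abundant gene MYL6 on the other strand over 1138 bases, and MYL6 itself went from a mean of 2691 to 3739 normalized counts, whose part in the SMARCC2 count was not tested. SMARCC1, the paralogue of SMARCC2, and SMARCB1, the core subunit lost in rhabdoid tumours, rose with log2 fold changes of 0.20 and 0.23. SMARCC1 lies among genes that were higher too, 123 neighbours with a median of 0.33. SMARCE1 fell slightly (-0.088), a direction that turned to 0.040 after correction for GC content and length. SMARCD1 and SMARCD2, the paralogues of SMARCD3, had log2 fold changes of -0.051 and -0.062 and did not pass (adjusted p 0.0952 and 0.192, DESeq2), but both passed as lower after the GC and length correction (-0.10 and -0.11), under total counts (-0.10 and -0.11) and on the TPM scale (-0.11 and -0.22). The median over genes itself moved by -0.053 under total counts and by -0.12 on the TPM scale. SMARCD2 also passed without T-MGM replicate 2 (-0.096, adjusted p 0.0389), and SMARCD1 turned to 0.031 on median-aligned TPM values.

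The ATPases SMARCA4 and SMARCA2 did not pass either. SMARCA4 was the SMARC gene with the highest level per length, at 103 ± 4.33 TPM in GFP and 99.8 ± 3.59 in T-MGM. The GFP libraries held 16579.6, 16781 and 16316 normalized counts and the T-MGM libraries 16571, 17555 and 17019, and the groups overlapped. The log2 fold change was 0.042 (95% limits of the fold 1.00 to 1.06, adjusted p 0.0859 in DESeq2), and it turned to -0.10 with an adjusted p of 1.20e-07 after correction for GC content and length, to -0.012 under scaling by total counts and to -0.043 on the TPM scale. It passed upwards under TMM scaling (0.053, adjusted p 0.0181) and without T-MGM replicate 1 (0.062, adjusted p 0.0103). SMARCA2 had 1391, 1509 and 1408 normalized counts in GFP against 1410.4, 1292 and 1353 in T-MGM (log2 fold change -0.088, adjusted p 0.206, DESeq2), and passed as lower under total counts (-0.14, adjusted p 0.0241).

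The SMARC helicases outside SWI/SNF went mostly down, with 3 of 4 lower and 1 higher. SMARCAD1, known for keeping silent chromatin through replication, fell from 2512, 2387 and 2364 normalized counts to 1979.7, 1892 and 1985 (log2 fold change -0.31, SE 0.041, adjusted p 8.49e-13, DESeq2). SMARCAL1, which remodels stalled replication forks, fell from 688, 728 and 707 to 619, 604 and 574 (log2 fold change -0.24, SE 0.075, adjusted p 0.00424). In both genes every T-MGM library lay under every GFP library. SMARCA5, the ISWI ATPase, fell by 0.22 on the log2 scale, and SMARCA1, its paralogue, rose by 0.23.

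The 6 DNA methylation enzymes with an adjusted p all passed, 3 in each direction and all without overlap of the groups. All of them but DNMT3B had a mean normalized count of at least 1000. Over all tested genes at that level 68.0% passed and 72.1% did not overlap. TET2 (ENSG00000168769.13, chromosome 4, 105145875 to 105279816, plus strand), a dioxygenase that oxidises methylcytosine and is often mutated in blood cancers, was the next largest change after SMARCD3. It had 1559, 1719 and 1447 normalized counts under GFP and 2630.1, 2632 and 2503 under T-MGM. The lowest T-MGM library was well above the highest GFP library, and the fold change was 1.64 (95% limits 1.53 to 1.76, log2 fold change 0.71, SE 0.050, adjusted p 1.74e-44, DESeq2). TET1 went from 1210.0, 1238 and 1349 to 1669.5, 1621 and 1581 normalized counts (log2 fold change 0.36, SE 0.053, adjusted p 8.78e-11, DESeq2). TET3, at the highest level per length of the TET genes, fell by 0.12 on the log2 scale (adjusted p 0.00254, DESeq2), which did not pass without GFP replicate 1 (adjusted p 0.0754).

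Both de novo methyltransferases were lower in T-MGM and the maintenance enzyme was higher. DNMT3A had 1751, 1820.0 and 1730.5 normalized counts in GFP against 1376, 1518 and 1314 in T-MGM, a fall with no overlap (log2 fold change -0.34, SE 0.054, adjusted p 2.52e-09, DESeq2). DNMT3B, described elsewhere as part of a silencing complex with MAFG, had 672, 557 and 643 in GFP against 515, 534 and 494 in T-MGM. The groups did not overlap, though GFP replicate 2 lay close to the T-MGM libraries, and the fall (log2 fold change -0.28, SE 0.087, adjusted p 0.00452, DESeq2) did not pass without GFP replicate 1 (-0.22, adjusted p 0.0690). DNMT1, which copies methylation after replication, was the chromatin gene with the highest level per length, at 114 ± 5.75 TPM in GFP and 119 ± 5.22 in T-MGM. In counts it rose by 9.91% (log2 fold change 0.14, adjusted p 5.08e-13, DESeq2), and S1PR2 shares its strand over 9854 bases. The 177 measured neighbours of DNMT1 within 5 Mb had a median log2 fold change of 0.12. DNMT1 stood at 0.046 after the GC and length correction (adjusted p 0.0358, DESeq2). It did not pass on the TPM scale (0.057, adjusted p 0.372, limma) but did with medians aligned (0.20, adjusted p 0.0193, limma). On median-aligned TPM values DNMT3A and DNMT3B did not pass (adjusted p 0.0670 and 0.161, limma).

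**Figure D2:**
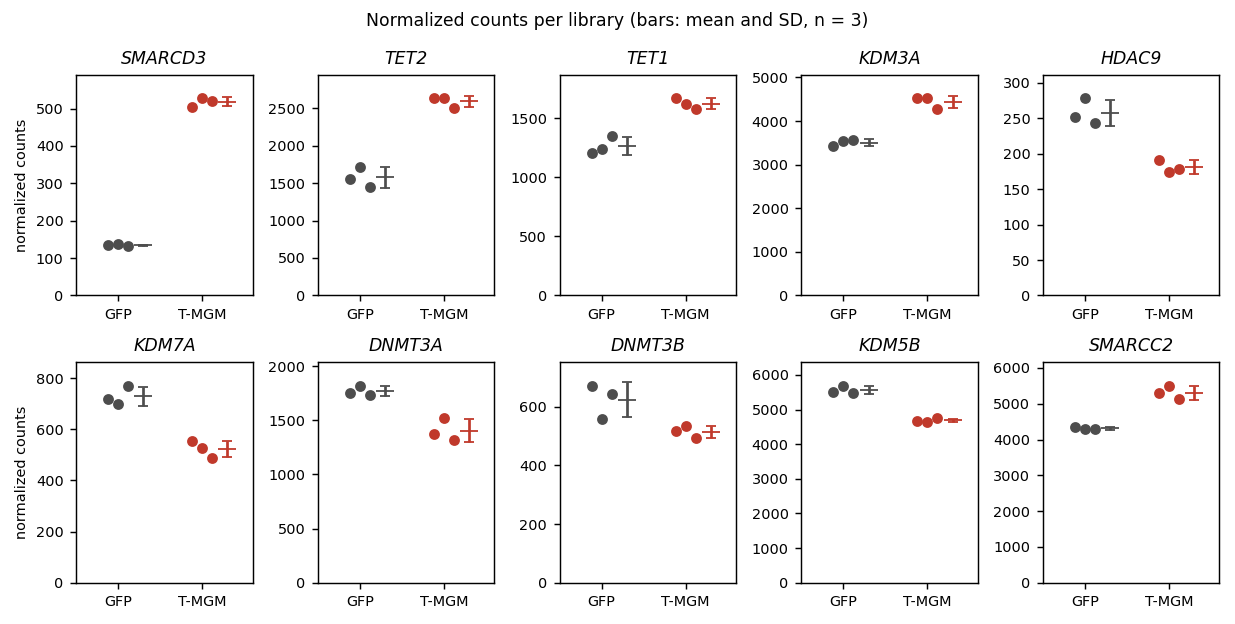
Normalized counts (vertical axes, from 0) of 10 chromatin genes in each GFP and T-MGM library (points), with the group mean and SD as bars (n = 3). SMARCD3 lay at 134 to 136 in GFP and at 504 to 528 in T-MGM, and in all 10 genes the groups do not overlap.

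Among the 17 tested KDM genes 7 were higher and 7 lower, together 82.4%. Of all tested genes 54.0% passed at a mean normalized count of 50 or more and 68.0% at 1000 or more. KDM3A (ENSG00000115548.17, chromosome 2, 86440647 to 86492716, plus strand), a demethylase of lysine 9 of histone H3 and a known hypoxia-induced gene, rose with 3421, 3549 and 3556 normalized counts in GFP against 4525, 4522 and 4279 in T-MGM. The 3 T-MGM libraries were all above the GFP libraries (log2 fold change 0.34, SE 0.032, adjusted p 2.06e-24, DESeq2). KDM4B, which also acts on lysine 9, went from 1700.4, 1683 and 1764 to 2221, 2149 and 1992 (log2 fold change 0.30, SE 0.048, adjusted p 1.22e-09). Further rises were KDM4C (0.24), the CpG-binding KDM2A (0.23) and KDM2B (0.20), KDM5C (0.18) and KDM3B (0.084). KDM2A lies on chromosome 11 among 176 neighbours with a median log2 fold change of 0.30, and KDM2B did not pass after correction for GC content and length (0.082, adjusted p 0.137). KDM4C did not pass without GFP replicate 2 (adjusted p 0.0531), and KDM3B did not pass under 10 of 15 alternatives, its sign turning to -0.14 on the TPM scale.

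KDM7A (ENSG00000006459.11, chromosome 7, 140084746 to 140176983, minus strand), a demethylase of lysines 9 and 27, fell furthest of the KDM genes. It had 719, 698 and 771 normalized counts in GFP against 554, 526 and 489 in T-MGM, with all T-MGM libraries lower (log2 fold change -0.48, SE 0.080, adjusted p 1.20e-08, DESeq2). KDM5B, an eraser of lysine 4 methylation that marks slow-cycling melanoma cells, fell from 5496, 5693 and 5480.3 to 4662, 4649 and 4745 normalized counts. That fall was 0.25 on the log2 scale (SE 0.027, adjusted p 1.27e-18, DESeq2), and the libraries of each group were within a narrow band. KDM1A, also called LSD1, had 5039, 4939 and 4978 in GFP against 4599, 4609 and 4843 in T-MGM, a fall of 0.089 on the log2 scale that did not pass without T-MGM replicate 1 (adjusted p 0.0627) or T-MGM replicate 2 (adjusted p 0.0505). Its paralogue KDM1B fell by 0.22. KDM6B (-0.11), KDM4A (-0.10) and KDM5A (-0.066) passed with adjusted p of 0.0134, 0.0363 and 0.0475 in DESeq2. Each of these 3 lost the adjusted p threshold when any of several libraries was left out, GFP replicate 2 among them. KDM4A and KDM5A also did not pass in edgeR (adjusted p 0.0548 and 0.0667). The same held with TMM factors, a minimum count filter, no independent filtering and a replicate block. KDM5A turned to 0.0060 after correction for GC content and length. KDM6A (-0.056), KDM4D (0.096) and KDM8 (0.40, adjusted p 0.0709) did not pass. KDM6A turned to 0.080 with the GC and length correction, and KDM4D to -0.069 without T-MGM replicate 3. KDM8 passed as higher without T-MGM replicate 1 (0.53, adjusted p 0.0308).

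Of the 11 HDAC genes 2 were higher, 3 were lower and 6 did not pass. The share that passed was 45.5%, beside 54.0% of tested genes at a mean normalized count of 50 or more. HDAC9 (ENSG00000048052.21, chromosome 7, 18086949 to 19002416, plus strand), a class IIa enzyme that binds MEF2 factors, had 252, 278 and 243 normalized counts in GFP against 192, 174 and 178 in T-MGM. No libraries overlapped (log2 fold change -0.51, SE 0.13, adjusted p 4.65e-04, DESeq2), and the level was low, 1.67 ± 0.0907 TPM in GFP and 0.953 ± 0.101 in T-MGM. HDAC4, of the same class, fell from 1649, 1598 and 1633 to 1337, 1442 and 1238 (log2 fold change -0.28, SE 0.055, adjusted p 1.41e-06). HDAC1, the class I enzyme at the centre of most corepressor complexes and the highest HDAC gene per length, fell from 8430.1, 8465 and 8323 to 7496, 7447 and 7442. This was a change of -11.2% with an adjusted p of 9.46e-15 in DESeq2. Its partner HDAC2 had 4963, 5081 and 4919 in GFP against 4980.2, 4858 and 4950.1 in T-MGM and did not pass (adjusted p 0.692, DESeq2), with a log2 fold change of -0.017 that turned to 0.12 with an adjusted p of 3.95e-05 after the GC and length correction. It passed as lower under total counts (-0.070, adjusted p 0.0277) and on the TPM scale (-0.17, adjusted p 0.0234).

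HDAC6, a cytoplasmic tubulin deacetylase, rose from 341, 374 and 364 normalized counts to 478, 487 and 487 (log2 fold change 0.43, SE 0.094, adjusted p 2.61e-05, DESeq2). HDAC5, of class IIa, rose from 735, 683 and 691 to 862, 872 and 853 (log2 fold change 0.30, SE 0.068, adjusted p 6.87e-05, DESeq2). On the TPM scale neither HDAC6 (0.21, adjusted p 0.302) nor HDAC5 (0.18, adjusted p 0.245) passed with limma. Nor did they with medians aligned (0.35, adjusted p 0.108, and 0.32, adjusted p 0.0797, limma). G6PC3 overlaps HDAC5 on the other strand over 5406 bases and went from a mean of 1656 to 1995 normalized counts, and its part in the HDAC5 count was not tested. The remaining class IIa gene, HDAC7, stood at -0.014 with an adjusted p of 0.923 in DESeq2, and had a sign that changed when GFP replicate 2 or T-MGM replicate 2 was left out. On the TPM scale it passed as lower (-0.47, adjusted p 0.0400). HDAC3 (0.051), HDAC8 (-0.047), HDAC10 (0.14) and HDAC11 (0.22) did not pass, and of these HDAC3, HDAC8 and HDAC10 each changed sign under at least 1 alternative, while HDAC10 passed as higher without GFP replicate 2 (0.21, adjusted p 0.0248).

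SIRT1, the NAD-dependent deacetylase of histones and many transcription factors, was the only sirtuin of 7 to pass. It had 1379, 1326 and 1299.8 normalized counts under GFP and 1181, 1168 and 1211 under T-MGM (log2 fold change -0.17, SE 0.053, adjusted p 0.00499, DESeq2). The groups did not overlap, but the fall did not pass without GFP replicate 1 (adjusted p 0.0521) or after the GC and length correction (-0.053, adjusted p 0.499). SIRT7, the highest sirtuin per length, overlaps MAFG on the same strand over 3054 bases. It had 952, 943 and 933 normalized counts in GFP against 962, 837 and 823 in T-MGM, where replicate 1 was as high as the GFP libraries (log2 fold change -0.11, adjusted p 0.219, DESeq2), and it passed as lower without T-MGM replicate 1 (-0.18, adjusted p 0.0366), under total counts (-0.16) and after the GC and length correction (-0.20), while on median-aligned TPM values it stood at 0.011. SIRT2 to SIRT6 had log2 fold changes from 0.036 to 0.27 and did not pass, with SIRT2, SIRT4 and SIRT5 changing sign under at least 1 alternative. SIRT2 passed as higher without T-MGM replicate 3 (0.30, adjusted p 0.00644) and SIRT6 without T-MGM replicate 1 (0.31, adjusted p 0.0178). By DESeq2 0 sirtuins were higher at the adjusted p, 3 were at an unadjusted p under 0.05, and edgeR gave 0.

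With DESeq2 the KMT2 and EZH enzymes were lower or did not pass. KMT2C, an enhancer methyltransferase, had 12498, 12238 and 12336 normalized counts in GFP against 10824, 10957 and 11106 in T-MGM (log2 fold change -0.17, SE 0.019, adjusted p 1.47e-18, DESeq2). KMT2A, the target of leukaemic translocations, had 8459, 8525 and 8639.7 in GFP against 7633, 7673 and 7829 in T-MGM (log2 fold change -0.15, SE 0.022, adjusted p 1.23e-10, DESeq2). In both genes the GFP libraries were all higher. KMT2B (-0.091), KMT2D (-0.025) and KMT2E (0.041) did not pass, and the sign of KMT2D turned on median-aligned TPM values and that of KMT2E under total-count scaling and on the TPM scale. KMT2E passed as higher after the GC and length correction (0.12, adjusted p 3.68e-08) and without GFP replicate 3 (0.060, adjusted p 0.0424). KMT2D passed as lower after that correction (-0.17) and under total counts (-0.078), and KMT2B under both of these and on the TPM scale (-0.24, -0.14 and -0.26). By DESeq2 0 KMT2 genes were higher at the adjusted p, with 0 at an unadjusted p under 0.05 and 0 in edgeR. EZH2, the main catalytic subunit of Polycomb repressive complex 2 in dividing cells, fell from 3328, 3269.8 and 3425 to 3157, 2883 and 2882 (log2 fold change -0.17, SE 0.038, adjusted p 5.12e-05, DESeq2). T-MGM replicate 1 was the nearest to the GFP libraries, and after the GC and length correction the value was -0.058 with an adjusted p of 0.248. EZH1, its paralogue, had 343, 381 and 413 in GFP against 432, 430.3 and 384 in T-MGM, with overlap (log2 fold change 0.13, adjusted p 0.366, DESeq2), and its sign turned on the TPM scale (-0.015).

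Paralogues that fill the same place in a complex or act on the same mark were compared by the share of 1 of them in the summed TPM of its set, over 10 sets. With 3 libraries against 3 the exact permutation test cannot go below a p of 0.10, so no share could pass. SMARCD3 took 2.28% (0.111 SD, n = 3) of the SMARCD1 to SMARCD3 sum in GFP and 8.93% (0.727) in T-MGM, with no overlap (exact permutation p = 0.10, 2-sided). SMARCD1 remained the main form, at 60.0% and 57.6%. In the TET set TET3 went from 60.1% to 47.5% and TET2 from 22.6% to 34.3%, while TET1 stood at 17.2% and 18.2%. KDM5B took 38.6% of its set in GFP and 33.1% in T-MGM, and KDM5C 22.9% and 27.8%. The share of HDAC1 beside HDAC2 was 59.0% in GFP and 56.3% in T-MGM, and that of KDM1A beside KDM1B was 74.0% and 75.7%. In these 5 sets the groups did not overlap, each with an exact permutation p of 0.10 (0.20 after Benjamini-Hochberg adjustment over the 10 sets). In the other 5 they overlapped, with exact permutation p from 0.20 to 0.90: SMARCA4 held 91.5% and 92.2% of the ATPase sum, EZH2 90.7% and 89.0%, SMARCC1 47.5% and 45.4%, DNMT3A 71.3% and 70.6%, and KDM6A 25.1% and 25.9%. The level of a share depended on the measure. From normalized counts per kilobase of exons KDM1A held 36.5% in GFP and 38.6% in T-MGM, and so was not the larger part. On that measure HDAC1 held 86.7% and 85.4%, KDM5B 23.0% and 19.8%, SMARCC1 63.7% and 62.1%, and KDM6A 6.18% and 6.40%.

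**Figure D3:**
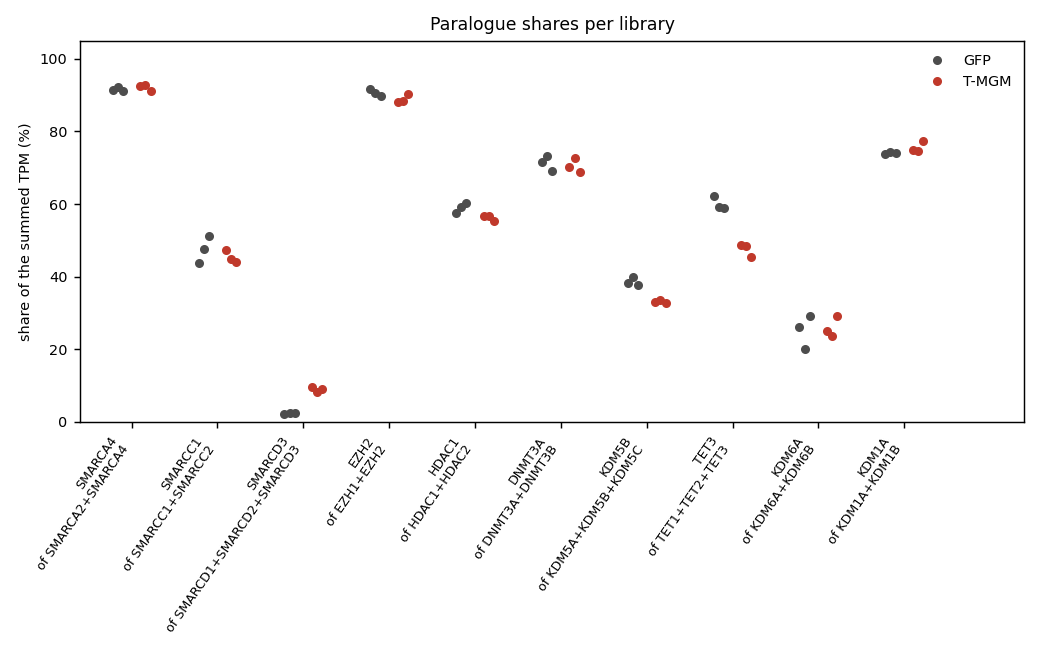
Share of 1 paralogue in the summed TPM of its set (vertical axis, %), for 10 sets, in each GFP (grey) and T-MGM (red) library. The SMARCD3 share is higher and the TET3 share lower in every T-MGM library, while SMARCA4 holds over 91% in all 6 libraries.

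The proteins that work with these enzymes were counted from 7 lists of 108 genes, 107 of them tested, written from general knowledge with earlier results of these data known. Of the 107 genes 23 were higher and 36 lower at the adjusted p, together 55.1%, beside 38.4% of all tested genes and 54.0% of those averaging 50 or more normalized counts. By DESeq2 0 were called at more than 2-fold, beside 4.63% over the table, with 1 at an unadjusted p under 0.05 and 0 in edgeR. Of the 12652 genes averaging 50 or more normalized counts, 313 were called higher and 93 lower. Among SWI/SNF subunits outside the SMARC names 2 of 19 were higher and 8 lower, together 52.6%, near the 54.0% at a mean of 50 or more. SS18L1, a subunit of the neuronal complex, had 1919, 1919.7 and 1941 normalized counts in GFP against 1311, 1333 and 1314 in T-MGM (log2 fold change -0.55, adjusted p 1.65e-31, DESeq2), and its paralogue SS18 fell by 0.38. Of 10 Polycomb repressive complex 2 partners 1 was higher and 5 were lower, with MTF2 at 2087, 2118 and 2199.9 in GFP against 1453, 1562 and 1479.6 in T-MGM (log2 fold change -0.51, adjusted p 6.49e-28, DESeq2) and the core subunit SUZ12 at -0.27.

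The other lists held genes of both directions. The share that passed ran from 46.2% to 81.8% by list, beside 54.0% of tested genes averaging 50 or more normalized counts. HDAC corepressor genes were higher in 5 and lower in 7 of 23, among them SAP30 of the SIN3 complex at 0.58 and TBL1XR1 of the NCoR complex at -0.25. COMPASS partners of the KMT2 enzymes were higher in 3 and lower in 3 of 13, with MEN1 (menin) rising from 1523, 1531 and 1568 normalized counts to 2162, 2009.8 and 2086 and PAGR1 at 0.26. Histone acetyltransferases were higher in 4 and lower in 3 of 12, such as KAT5 at 0.34 and HAT1 at -0.31. Among 19 other lysine methyltransferases 4 were higher and 5 lower. SETDB1, a lysine 9 methyltransferase amplified in some melanomas, fell from 1200.4, 1239.7 and 1198 to 849, 829 and 834 normalized counts (log2 fold change -0.53, adjusted p 8.04e-19, DESeq2), and NSD2 rose by 0.27. Of 11 DNA methylation partners and readers 4 were higher and 5 lower. Both TDG, which excises oxidised methylcytosine, and IDH1, which supplies the 2-oxoglutarate that TET and KDM enzymes use, were among the lower, at -0.34 and -0.52. Several of these genes lie among measured genes within 5 Mb whose median log2 fold change had the same sign. It was -0.40 over 21 neighbours of SS18, as large as the change of SS18, 0.31 over 185 of MEN1 and 0.29 over 188 of KAT5. It was -0.24 over 38 neighbours of MTF2, -0.25 over 49 of HAT1, -0.21 over 143 of SETDB1 and -0.28 over 26 of IDH1.

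**Figure D4:**
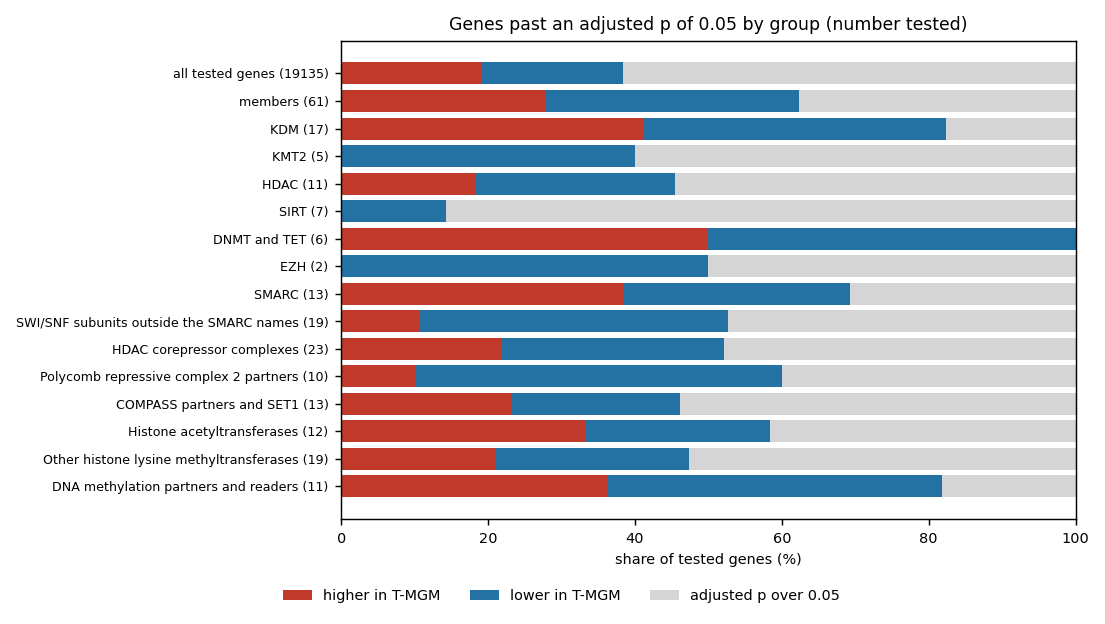
Share of tested genes (horizontal axis, %) that were higher or lower in T-MGM, or did not pass, at an adjusted p of 0.05, for all tested genes, for the 61 chromatin genes and their families, and for 7 lists of partner genes (number tested in parentheses). All 6 DNMT and TET genes passed, beside 38.4% of all tested genes and 1 of 7 sirtuins.

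The balance of higher and lower genes depended on the scale. It was 17 to 21 with DESeq2 size factors, but 3 to 23 with limma on log2(TPM + 1), where the median over genes moved by -0.12, and 11 to 8 on the same scale with library medians aligned, an alternative chosen after seeing the data. For the partner lists the balance was 23 to 36, and it was 15 to 44 under total-count scaling and 6 to 44 on the TPM scale. Total-count scaling moved the median over genes by -0.053, and that shift is part of every log2 fold change given under it. Across the 61 genes, the log2 fold change had a Spearman correlation of 0.34 with the GC content of their exons, beside 0.38 across 12611 genes, as a description over genes that share libraries. Of the 38 genes past the adjusted p, 10 kept their direction and stayed past it under every alternative run. These were SMARCD3, TET2 and KDM3A on the higher side and HDAC9, SMARCAD1, KDM5B, SMARCAL1, KDM1B, KMT2C and HDAC1 on the lower side. Under the alternatives that used counts 26 did, 14 higher and 12 lower.

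**Figure D5:**
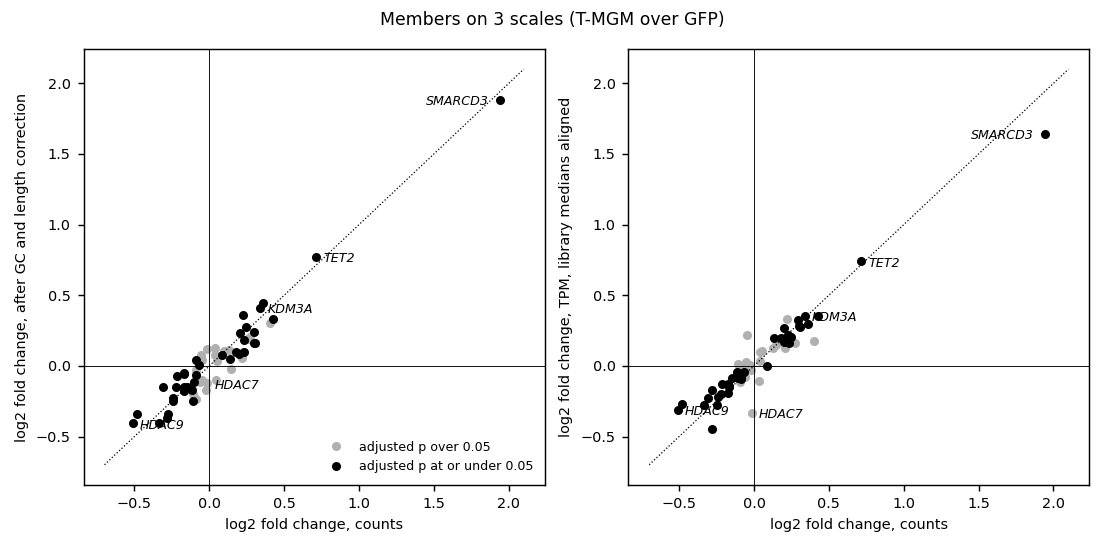
Log2 fold change, T-MGM over GFP, of each chromatin gene on counts (horizontal axes) against the same after GC and length correction (left) and on log2(TPM + 1) with library medians aligned (right), with the line of equality dotted. SMARCD3 (1.94, 1.88 and 1.64) and TET2 (0.71, 0.77 and 0.74) stand apart on all 3 scales, while genes near 0 change sign.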

How the data were processed

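Total RNA of 6 WM164 libraries was measured, and groups and replicate numbers came from the sample titles, which give no batch or date. The authors trimmed reads with cutadapt 1.8.1, aligned them to GRCh38 with STAR 2.7.7a and used featureCounts to assign uniquely mapped reads to genes. These deposited counts are unscaled whole numbers, 1 column per library. The authors also deposited TPM values from RSEM 1.3.0, which sum to the same total in every library and from which log2(TPM + 1) values were computed. The annotation release was not given in the sources used here. The labels name a library kit without strand information and the study's methods one with it, so counts of overlapping genes on opposite strands are uncertain.

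The deposited counts were tested with DESeq2 1.42.0 in R 4.3.3 on all genes: group as the only term, a 2-sided Wald test, median-of-ratios size factors, the default setting for the dispersion trend, Benjamini-Hochberg adjustment and independent filtering at 0.05. A gene was called at an adjusted p at or under 0.05 and more than a 2-fold change, as the study's methods do. A positive log2 fold change means higher in T-MGM, and no shrinkage was applied. Genes with at most 3 counts in every library were treated as at the floor, a limit for counting error alone, as reads without molecular identifiers may be copies of 1 molecule. The alternatives were edgeR 4.0.16 quasi-likelihood, TMM factors, total counts, a minimum of 10 counts in 3 libraries, no independent filtering, a replicate block, leaving out each library, lowess correction for GC content and exon length (span 0.3), and limma 3.58.1 on log2(TPM + 1) of genes with at least 0.5 TPM in 3 libraries. DESeq2, edgeR, the DESeq2 replicate block and limma on TPM were first tested on simulated counts, and the other alternatives were not. Positions, neighbours and overlapping genes were taken from GENCODE release 44 (GRCh38), where 99.4% of the identifiers were found.

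The members, the lists and the sets of paralogues were chosen with earlier results of these data known. Named with values were every called gene, up to 4 genes of each family and 2 of each list with the largest change past the adjusted p at a mean normalized count of at least 100, and a fixed set (DNMT3B, SMARCA4, SMARCA2, EZH1, EZH2, KDM1A, KDM3A, KDM5B, HDAC1, HDAC2, SIRT1, SIRT7 and TET2). All others are given by count, with their log2 fold changes. The level of the Y-linked KDM5D is not reported here.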

Additional observations from a re-analysis of the deposited data

How the results depend on the processing

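The 3 libraries in each group limit what could be called, and differences of a few percent rest on abundant genes. Counts outside the chromatin genes moved most on log2(TPM + 1) with limma: genes of the whole table called higher fell from 624 to 70 and lower from 261 to 63, and with library medians aligned (chosen after seeing the data) to 112 and 43. The cause was not tested. Chromatin genes past the adjusted p were 3 higher on the TPM scale, and 11 higher and 8 lower with medians aligned. Partner genes past it were 6 higher on the TPM scale and 15 under total counts, and 11 higher and 16 lower with medians aligned. Replicate numbers did not pair the libraries: deviations of same-numbered libraries correlated at 0.011, -0.015 and 0.054, and with the replicate block 16 chromatin genes were higher and 18 lower, 19 and 29 partner genes, and 536 and 199 genes called over the table. With normalized counts per kilobase of exons in place of TPM, the difference in share (percentage points, T-MGM minus GFP) was 4.18 for SMARCD3, -1.29 for HDAC1 and -3.16 for KDM5B. Leaving out 1 library at a time, the DNMT3A difference ran from -1.92 to 0.24 (positive without GFP replicate 2 or T-MGM replicate 3) and the KDM6A difference from -1.71 to 2.75 (negative without either of these). Members called stayed at 1 higher and 0 lower under every alternative run.

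Among log2 fold changes, directions turned for the genes named here. With the GC and length correction the log2 fold change became -0.020 for HDAC10, 0.12 for HDAC2, 0.044 for HDAC8, 0.0060 for KDM5A, 0.080 for KDM6A, -0.10 for SMARCA4 and 0.040 for SMARCE1. On the TPM scale it became -0.015 for EZH1, -0.040 for HDAC3, 0.075 for HDAC8, -0.14 for KDM3B, -0.11 for KMT2E, -0.016 for SIRT2, -0.25 for SIRT5 and -0.043 for SMARCA4. With medians aligned it became 0.22 for HDAC8, 0.0066 for KMT2D, -0.11 for SIRT5, 0.011 for SIRT7 and 0.031 for SMARCD1. Under total counts it became -0.0027 for HDAC3, -0.013 for KMT2E, -0.017 for SIRT5 and -0.012 for SMARCA4. Leaving out 1 library at a time gave -0.066 to 0.040 for HDAC7, -0.093 to 0.72 for SIRT4, -0.015 to 0.067 for SIRT5 and -0.069 to 0.29 for KDM4D. Of these, KDM5A, SMARCE1 and KDM3B had passed the adjusted p. Over all single genes and alternatives, 984 values kept their direction and side of the threshold, 80 lost the threshold and 27 gained it.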
